A study of Danio rerio with 9 samples.

Results

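Signal of 5 genes was followed across the arrays of this zebrafish tail study: *mfap4.1*, *havcr1*, *spi1b* and *csf1ra*, which are associated with macrophages, and *cfbl*, a complement gene. They were chosen with earlier results of the same arrays in view, so the measured difference between cut and uncut tails had a part in selecting them. That difference is therefore given as a description, with no p for any of the 5. Whether each passed the call rule of the fit over all transcripts is stated as part of that description and is no independent test. Each gene was found on the array through the RefSeq mRNA identifier of its transcript, and each had 1 transcript, so 5 of 37176 transcripts are concerned, or 5 of the 2663 transcripts that could be assigned to a gene.

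The cut group consisted of 5 arrays of posterior tissue from wild-type AB larvae, a laboratory strain, whose tail fins had been amputated just behind the notochord at 2 dpf (days post fertilization) and whose posterior tissue was taken at 3 dpf, which is 1 dpa (day post amputation). The uncut group consisted of 4 arrays of posterior tissue from intact wild-type AB siblings at 3 dpf. No mutation, transgene or drug was used in either group, all larvae were raised in E3 medium, and RNA came from roughly 150 tails per condition. Array medians lay between 8.54 and 8.63 on the log2 scale, and single values between 3.17 and 15.99. An array gives no read depth, and precision is limited by how many arrays there are. Where the larvae of each array came from is not stated, so p-values measure the spread between arrays, which may be technical. A probe's level depends on its own sequence, so levels were compared between arrays and not between genes.

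Macrophages are phagocytes that reach a wound within hours, clear dying cells and debris, and are known to be needed for normal fin regrowth in zebrafish. Their development depends on the transcription factor Pu.1, which *spi1b* encodes, and their growth and survival on Csf1r, a receptor tyrosine kinase for the cytokines Csf1 and Il34. Complement is a cascade of plasma proteases that coats targets for uptake. Its alternative pathway uses factor B, to which the product of *cfbl* is related, as the catalytic part of the enzyme that cleaves C3.

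Signal was higher in cut tails for *mfap4.1*, *havcr1*, *spi1b* and *cfbl*, by 2.38-fold to 3.01-fold, and in each of these 4 the lowest cut array lay above the highest uncut array. The mean of *csf1ra* was 1.25-fold higher in cut tails, and its groups overlapped. A transcript counted as called where its signal differed 1.5-fold or more and its adjusted p did not exceed 0.1 (limma, Benjamini-Hochberg over all 37176 transcripts). By that rule 0.468% of all transcripts (174) were called higher in cut tails and 0.697% (259) in either direction. Of the 5 genes, *cfbl* was called higher and the others were not called. Complete separation of the groups, with every cut array above every uncut array, occurred for 2.83% of all transcripts (1052). Because the 5 genes were selected on this contrast, nothing is read from their counts against these shares. The median log2 difference of all transcripts was 0.04.

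**Figure D1:**
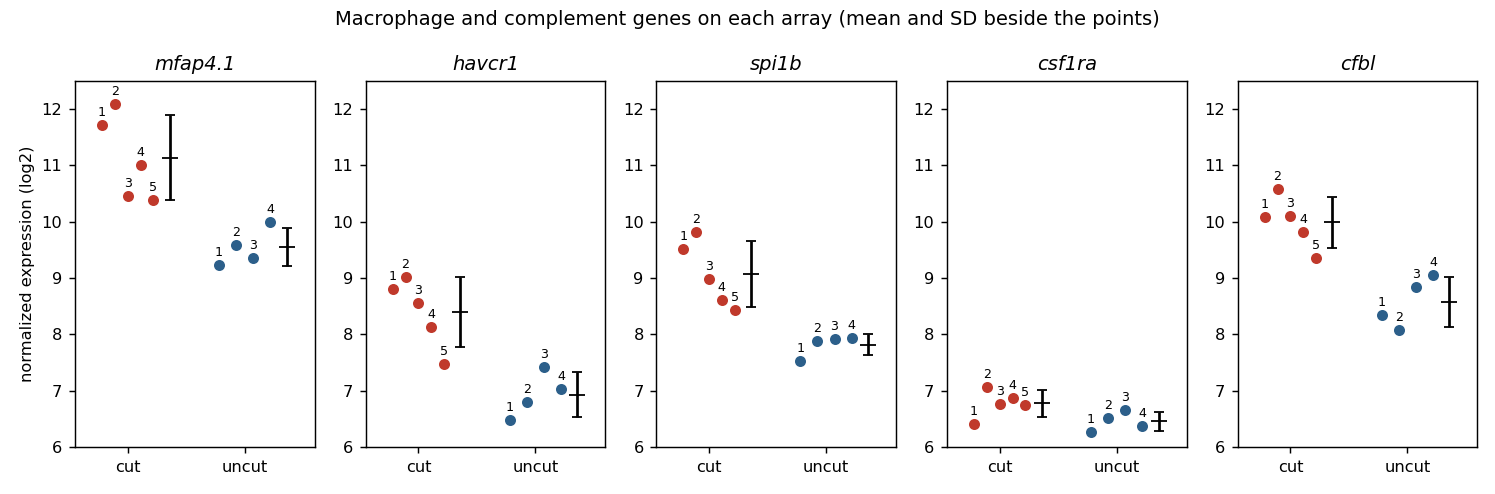
Log2 signal of each of the 5 genes on each array, cut tails (n = 5) left of uncut tails (n = 4) for each gene, with the replicate number above each point and the group mean ± SD drawn beside the points. The groups are separate for *mfap4.1*, *havcr1*, *spi1b* and *cfbl* and overlap for *csf1ra*, and cut replicate 2 is the highest point for every gene. Levels cannot be compared between genes.

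*mfap4.1* (NM_212889) encodes a secreted protein with a fibrinogen-related domain and is widely used to mark macrophages in zebrafish larvae. Its log2 signal was 11.72, 12.10, 10.46, 11.01 and 10.39 in cut replicates 1 to 5, against 9.23, 9.59, 9.36 and 10 in uncut replicates 1 to 4. Cut replicates 1 and 2 were the high arrays, and cut replicates 3 and 5 came closest to the uncut tails, with a gap of 0.39 between the lowest cut and the highest uncut value. The means were 11.14 ± 0.76 in cut tails (SD, n = 5) and 9.55 ± 0.34 in uncut tails (SD, n = 4). The log2 difference was 1.59 with a standard error of 0.35, the largest of the 5 genes and the 78th highest of all transcripts. The annotation holds 13 genes whose symbol begins with mfap4, of which 1, *mfap4.1* itself, had a transcript assigned. The probe sequences were not used here, so signal from a near-identical copy was not tested.

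*havcr1* (NM_001002434) belongs to the Tim family of cell surface proteins, which in mammals bind phosphatidylserine on dying cells. On the log2 scale it measured 8.81, 9.02, 8.56, 8.13 and 7.47 in cut replicates 1 to 5, against 6.47, 6.80, 7.42 and 7.03 in uncut replicates 1 to 4. The groups were barely separate, since cut replicate 5 lay 0.05 above uncut replicate 3, while the other 4 cut arrays lay between 8.13 and 9.02. The means were 8.40 ± 0.61 in cut tails (SD, n = 5) and 6.93 ± 0.40 in uncut tails (SD, n = 4), and the log2 difference was 1.47 with a standard error of 0.31.

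*spi1b* (NM_198062) encodes Pu.1, the transcription factor that commits blood progenitors to the myeloid fate. Its log2 signal was 9.51, 9.81, 8.98, 8.61 and 8.44 in cut replicates 1 to 5, against 7.53, 7.88, 7.92 and 7.94 in uncut replicates 1 to 4. The gap between the lowest cut and the highest uncut array, 0.50, was the widest among the 5 genes, and the uncut arrays other than replicate 1 lay between 7.88 and 7.94. The means were 9.07 ± 0.58 in cut tails (SD, n = 5) and 7.82 ± 0.19 in uncut tails (SD, n = 4). The log2 difference was 1.25 with a standard error of 0.27.

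*csf1ra* (NM_131672) encodes 1 of the Csf1 receptors of zebrafish. It is known from macrophages and also from xanthophores, the yellow pigment cells of the fish skin. Its values on the log2 scale were 6.41, 7.07, 6.77, 6.87 and 6.75 in cut replicates 1 to 5, against 6.27, 6.52, 6.65 and 6.37 in uncut replicates 1 to 4. Cut replicate 1 lay inside the uncut range, and the other 4 cut arrays lay above it. The means were 6.77 ± 0.24 in cut tails (SD, n = 5) and 6.46 ± 0.17 in uncut tails (SD, n = 4), and the log2 difference was 0.32 with a standard error of 0.15. The mean of this transcript over all arrays stood at percentile 21.2 of all transcripts. The lower quartile of all transcripts itself ran from 6.79 to 7.02 in cut and from 6.74 to 6.92 in uncut arrays. Taken as deviations from the group means, *csf1ra* had r = 0.61 with that quartile over the 9 arrays, and the other 4 genes had r from -0.43 to -0.23. The part of this dim end of the scale in the *csf1ra* values was not tested.

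*cfbl* (NM_001083858) encodes a protein like complement factor B, a serine protease that in mammals is made mainly by the liver and also by macrophages. The log2 signal of this transcript was 10.09, 10.59, 10.11, 9.81 and 9.35 in cut replicates 1 to 5, against 8.35, 8.07, 8.84 and 9.05 in uncut replicates 1 to 4. All cut arrays were above all uncut arrays, with a gap of 0.30. The means were 9.99 ± 0.46 in cut tails (SD, n = 5) and 8.58 ± 0.45 in uncut tails (SD, n = 4). The log2 difference was 1.41 with a standard error of 0.27, a 2.66-fold higher signal and the 118th highest difference of all transcripts.

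Tissue was measured in bulk. A larger number of macrophages in the sample, more of these transcripts per cell and signal from other cells of the sample therefore cannot be told apart. Among the markers listed for a macrophage (*mpeg1.1*, *mfap4.1*, *csf1ra*, *marco* and *irf8*), only *mfap4.1* and *csf1ra* had a transcript assigned. The study's own list of upregulated genes holds *irf8*, so *irf8* is on the array, under an identifier that could not be assigned here. The same may hold for *mpeg1.1* and *marco*. None of these markers outside the 5 could therefore be measured here to check the name macrophage gene. None of the neutrophil markers *mpx*, *lyz* and *npsn* had a transcript assigned either.

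The spread within a group was shared by some of the 5 genes. Cut replicate 2 was the highest cut array in all 5, and cut replicate 5 was the lowest cut array in 4, with *csf1ra* the exception. Uncut replicate 1 was the lowest uncut array in 4, with *cfbl* the exception. The range over the cut arrays was 1.71 for *mfap4.1*, 1.54 for *havcr1*, 1.38 for *spi1b*, 1.24 for *cfbl* and 0.66 for *csf1ra*.

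To describe this, the group mean was taken from each value and the deviations of pairs of genes were correlated over the 9 arrays, a measure that the contrast does not enter. Pearson's r was 0.89 for *havcr1* and *spi1b*, 0.86 for *mfap4.1* and *spi1b*, and 0.84 for *havcr1* and *cfbl*. It was 0.75 for *spi1b* and *cfbl*, 0.67 for *mfap4.1* and *havcr1*, and 0.66 for *mfap4.1* and *cfbl*. *csf1ra* stood apart, with r between 0.07 and 0.24 against the other 4 genes. When each array was left out in turn, the 6 correlations among the other 4 genes ranged from 0.46 to 0.93, and those of *csf1ra* ranged from -0.52 to 0.74. Values of 1 array share a hybridization and a normalization, and so these correlations are descriptions without a p. Across the 2662 other assigned transcripts the 95th percentile of r was 0.68 for *mfap4.1*, 0.68 for *havcr1*, 0.69 for *spi1b*, 0.57 for *cfbl* and 0.66 for *csf1ra*.

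**Figure D2:**
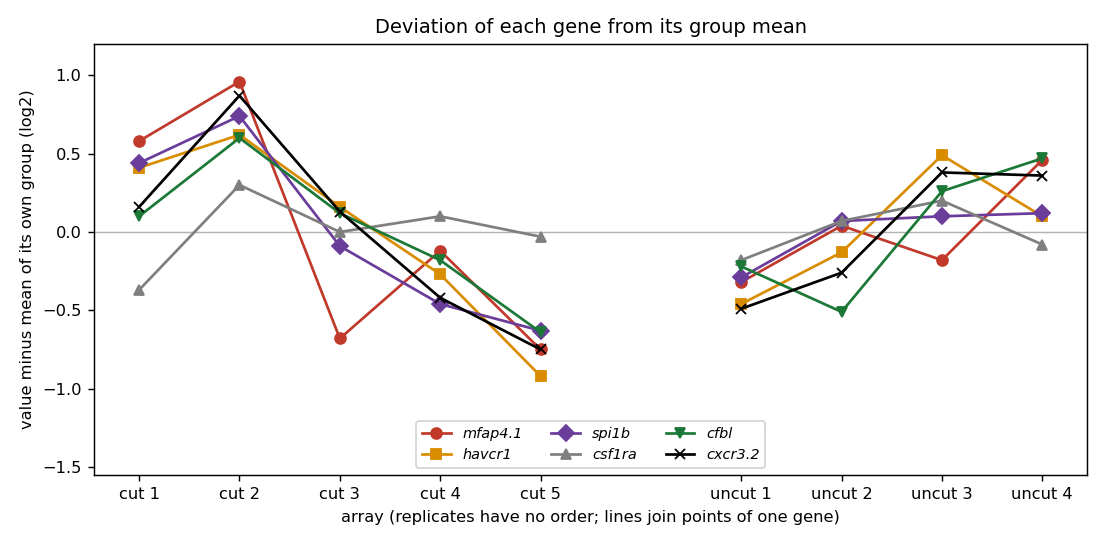
Deviation of each gene's log2 signal from the mean of its own group, for cut replicates 1 to 5 on the left and uncut replicates 1 to 4 on the right, with 1 line per gene; the line of *cxcr3.2*, a gene described next, is added. The lines of *mfap4.1*, *havcr1*, *spi1b* and *cfbl* are high at cut replicate 2 and low at cut replicate 5, while *csf1ra* is lowest in cut replicate 1.

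The assigned genes whose deviations were most like those of the 5 were named by rank of r. For *havcr1* they were *cxcr3.2* (0.93), which encodes a chemokine receptor of zebrafish macrophages, *hnrnpk* (0.92) and *b9d2* (0.92). For *cfbl* they were *cxcr3.2* (0.93), *havcr1* (0.84) and *b9d2* (0.82). For *spi1b* they were *nrros* (0.96), *tkfc* (0.93) and *parvg* (0.93). In mammals *NRROS* is expressed by myeloid cells and microglia, and *PARVG* in blood cells. The log2 differences of the zebrafish genes were 0.46 for *nrros* and 0.63 for *parvg*, and neither was called. The genes most like *mfap4.1* were *hoga1* (0.98), *casp6b.1* (0.93) and *m6pr* (0.93). The genes most like *csf1ra* were *fam83fb* (0.95), *syk* (0.93), which encodes a kinase downstream of immune receptors, and *sid4* (0.90). The means of *syk* and *csf1ra* stood at percentiles 12.8 and 21.2 of all transcripts, at the dim end of the scale. These r values are the highest of 2662 over only 9 arrays. Functions are given for only some of the genes named, and nothing is read from them.

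The receptor gene *cxcr3.2* (NM_001007314) is not among the 5. It is described because it had the highest r with *havcr1* and *cfbl*, so its likeness to them within groups is no independent result. Its log2 signal was 8.42, 9.13, 8.39, 7.84 and 7.51 in cut replicates 1 to 5, against 6.43, 6.66, 7.30 and 7.28 in uncut replicates 1 to 4. The groups did not overlap, beside 2.83% of all transcripts with every cut array above every uncut array. Cut replicate 2 was the highest and cut replicate 5 the lowest cut array. The log2 difference was 1.34 with a standard error of 0.32, higher in 5 of 5 cut arrays than in any uncut array, and it missed the call (adjusted p = 0.142, limma with Benjamini-Hochberg adjustment). Over the alternatives other than a mean-variance trend, for which it was not kept, its adjusted p ran from 0.0246 to 0.441 (limma).

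Replicates 1 to 4 carry the same numbers in both groups, and over these 8 arrays same-numbered arrays deviated together (r = 0.59, 0.21, 0.24 and 0.35). With group means over all 9 arrays, r was 0.58, 0.09, 0.25 and 0.32. Nothing states what a number stands for. The cut minus uncut difference within numbers 1, 2, 3 and 4 was 2.49, 2.51, 1.1 and 1.01 for *mfap4.1*, and 2.34, 2.22, 1.14 and 1.1 for *havcr1*. For *spi1b* it was 1.98, 1.93, 1.06 and 0.68, and for *cfbl* 1.74, 2.52, 1.27 and 0.76. These 4 genes thus had larger differences in numbers 1 and 2 than in numbers 3 and 4. For *csf1ra* the differences were 0.13, 0.54, 0.12 and 0.50, which did not follow that order. With the replicate number as a block, a fit that leaves out cut replicate 5 because it has no uncut partner, *mfap4.1*, *havcr1*, *spi1b* and *cfbl* were all called higher, beside 1.01% of all transcripts (377), and *csf1ra* was not. The same 8 arrays without the block called *havcr1*, *spi1b* and *cfbl*, beside 134 of all transcripts called higher. The log2 difference of *cxcr3.2* was 1.53 with the block and was called higher (adjusted p = 0.0924, limma).

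Other genes of the same systems were then counted from 8 lists covering macrophages, myeloid transcription factors, neutrophils, Csf1 and Il34 signalling, phagocytosis, complement, cytokines and pattern recognition. The lists held 406 genes, the 5 included, and 48 genes beside the 5 had a transcript assigned. None of the 48 was called (limma), 3 had an unadjusted p below 0.05, beside 12.2% of all transcripts (4524), and 3 had every cut array above every uncut array, while 0 had every cut array below. Their median log2 difference was 0.09, beside 0.04 for all transcripts, with a range from -0.26 to 1.34. The 3 with an unadjusted p below 0.05 were *cxcr3.2*, *elmo1* and *calr*, and the 3 with separate groups were *cxcr3.2*, *calr* and *tnfrsf21*. The lists as such were not tested, and nothing particular to them is read from these counts. None of the closest relatives *spi1a*, *csf1rb*, *cfb*, *havcr2* and *timd4*, nor the ligand genes *csf1a*, *csf1b* and *il34*, had a transcript assigned.

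**Figure D3:**
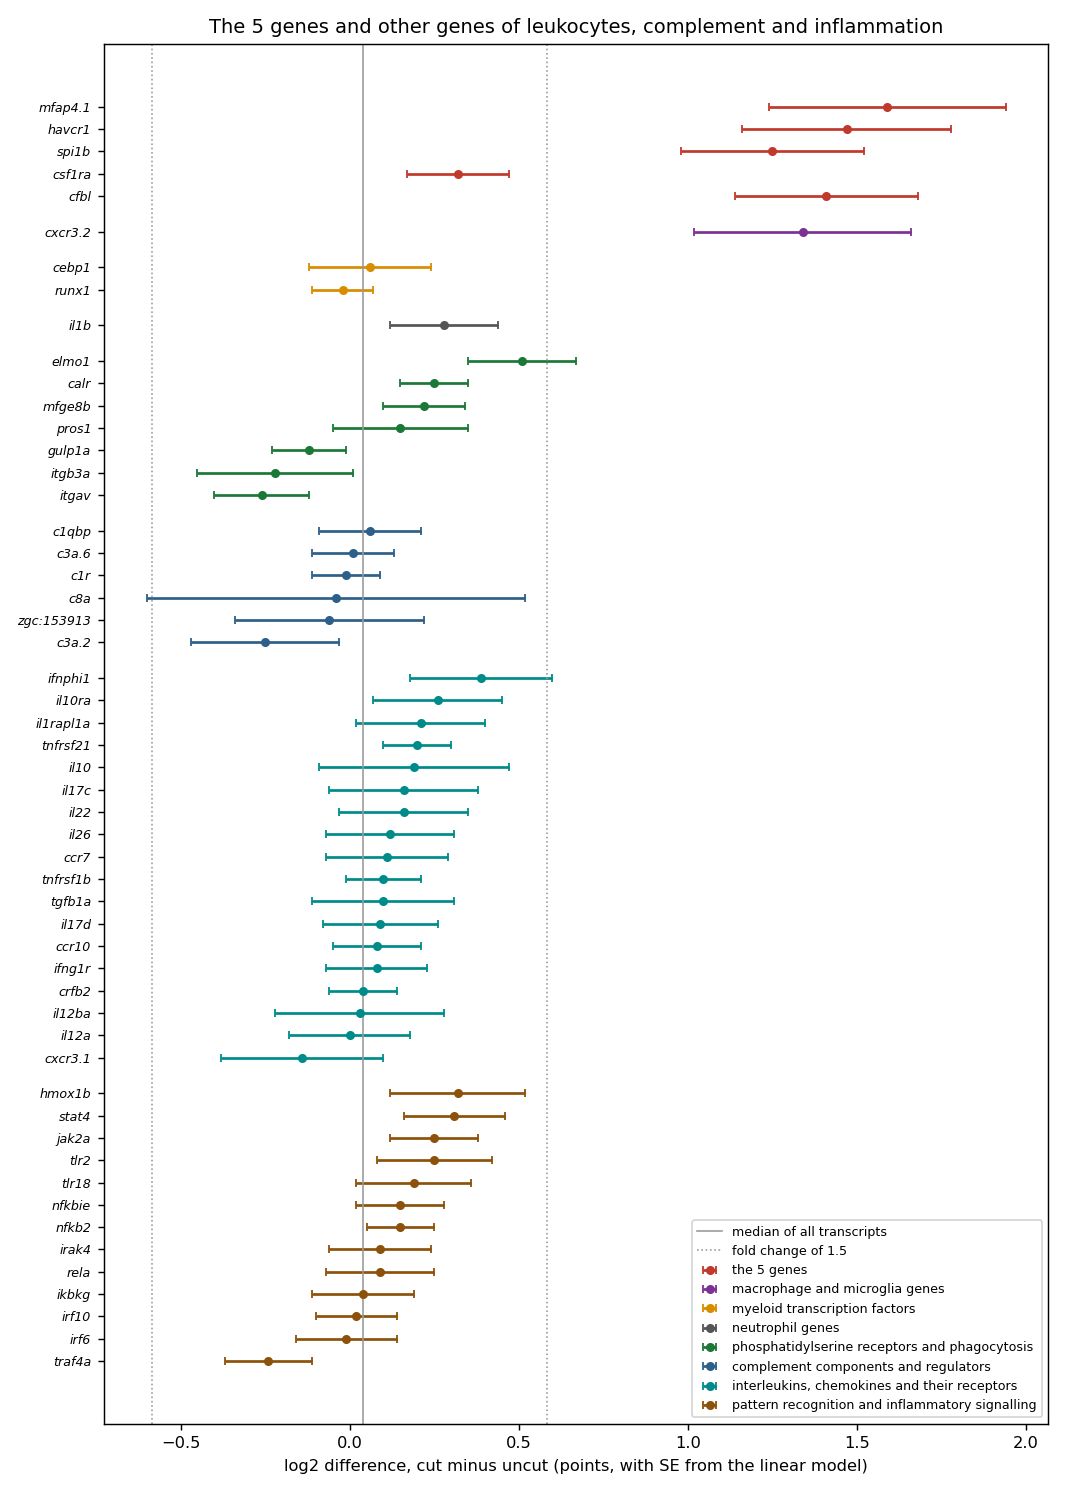
Log2 difference, cut minus uncut, of the 5 genes and of the other measured genes of the 8 lists, with 1 point per gene, colored by list, and bars for the standard error of the fit. The solid line marks the median of all transcripts, 0.04, and the dotted lines mark a fold change of 1.5. Apart from *cxcr3.2* at 1.34, the other genes lie between -0.26 and 0.51. *mfap4.1*, *havcr1*, *spi1b* and *cfbl* lie between 1.25 and 1.59, but they were selected with this contrast known.

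Among the transcription factors of the myeloid lineage, *cebp1*, a zebrafish C/EBP gene of the neutrophil lineage, had a log2 difference of 0.06, and *runx1*, a factor of blood stem cells, had -0.02. Neither was called. Their means stood at percentiles 23.9 for *cebp1* and 6.2 for *runx1* of all transcripts, so a change could be missed at this dim end of the scale. In the macrophage list, *cxcr3.2* was the only gene assigned beside the 5, and in the Csf1 and Il34 list *csf1ra* was the only gene assigned. In the neutrophil list, *il1b*, the gene of an inflammatory cytokine that macrophages also make, was the only assigned gene. It had a log2 difference of 0.28 (standard error 0.16), which did not pass the test (adjusted p = 0.53, limma).

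Of the phagocytosis list, 7 genes beside *havcr1* were measured. None was called, beside 0.697% of all transcripts in either direction, and their median log2 difference was 0.15. *elmo1*, which helps to activate Rac during engulfment, had the largest, 0.51 with a standard error of 0.16. Its log2 signal was 9.72, 9.61, 9.47, 9.27 and 9.36 in cut tails, against 9.36, 8.89, 8.98 and 8.65 in uncut tails. Only uncut replicate 1 reached the range of the cut arrays (adjusted p = 0.233, limma). *calr*, the gene of calreticulin, an endoplasmic reticulum chaperone that can also act as an engulfment signal, had a difference of 0.25 (adjusted p = 0.36, limma). Its groups were separate by a gap of only 0.06, beside 2.83% of all transcripts with every cut array above every uncut array. The integrin genes *itgb3a* and *itgav* had differences of -0.22 and -0.26.

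Of the complement list, 7 genes beside *cfbl* were measured, and their differences ran from -0.25 to 0.25. The highest, 0.25, was that of *calr*, which is also in the phagocytosis list, and the others reached at most 0.06. *c3a.2*, a gene of the central component C3, had a log2 difference of -0.25 (standard error 0.22, adjusted p = 0.694, limma), and *c3a.6* had 0.01. *c1r*, a protease gene of the classical pathway, had -0.01, *c1qbp* had 0.06 and *zgc:153913* had -0.06. The means of *c3a.2*, *c3a.6*, *c1r* and *zgc:153913* stood at percentiles 14.1, 6.15, 11.2 and 16.4 of all transcripts. At this dim end of the scale a change could be missed, so their small differences do not show that these genes were unchanged. *c8a*, a gene of the terminal pore, varied widely within both groups. Its log2 signal was 7.66, 10.48, 8.93, 8.77 and 8.28 in cut tails, against 7.52, 9.31, 9.44 and 9.17 in uncut tails, a difference of -0.04 with a standard error of 0.56. Replicate 1 was the lowest array of *c8a* in both groups. None of these 7 genes was called, beside 0.697% of all transcripts in either direction. The complement list held 54 genes, so most of it was not measured here. The study's own list of upregulated genes holds the complement gene *c6*, which is not among the 7.

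Of the 110 genes of the cytokine list, 20 were measured, with a median log2 difference of 0.11. None was called, beside 0.697% of all transcripts in either direction. The study's own list of upregulated genes holds the interleukin gene *il11a* and the chemokine-like receptor gene *cmklr1*. Neither is among the 20. Apart from *cxcr3.2*, the largest differences among the 20 were 0.39 for *ifnphi1*, an interferon gene, 0.28 for *il1b* and 0.26 for *il10ra*, a receptor gene for interleukin 10. *cxcr3.1*, the neighbouring paralogue of *cxcr3.2*, had -0.14, with a mean at percentile 10.1 of all transcripts, where a change could be missed. Of the pattern recognition list, 13 genes were measured with differences from -0.24 to 0.32. They were led by *hmox1b*, a heme oxygenase gene (0.32), and *stat4*, a signal transducer of cytokine receptors (0.31).

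Genes of other cell types were set beside these values. Of the markers fixed for erythrocytes, endothelium, liver, exocrine pancreas, lens, epidermis with fin fold, and muscle with notochord, only *cdh5* of endothelium and *crygmx* of lens had a transcript assigned, and so the longer lists were used. The median log2 signal over the 6 measured erythroid and endothelial genes was 7.58 to 7.99 in cut and 8.07 to 8.45 in uncut arrays, without overlap. On the cut arrays and uncut replicates 1 and 2 this median was the midpoint of *cdh5* and *egfl7*. On uncut replicates 3 and 4 it was that of *cdh5* and *cldn5b*. The separation therefore rests mainly on *egfl7* and does not describe the 6 genes as a set. The single differences of the 6 genes did not run 1 way, with a median of -0.04. The endothelial gene *egfl7* had -0.74 (adjusted p = 0.215, limma), *hbbe3* -0.34, *cdh5* -0.10, *cldn5b* 0.01, *kdr* 0.10 and *hbae3* 0.21. None was called here, beside 0.697% of all transcripts in either direction. The study's own list of downregulated genes does hold *egfl7*, without naming the transcript. The median log2 signal of the 7 measured epidermis and fin fold genes was 11.03 to 11.31 in cut and 11.00 to 11.37 in uncut arrays. Uncut replicate 3 had the 11.00, and the rest of the uncut group lay between 11.32 and 11.37. The single differences of the 7 genes ran from -0.30 to -0.07, with a median of -0.27. The median log2 signal of the 4 measured liver genes was 7.48 to 8.17 in cut and 7.03 to 8.29 in uncut arrays. Their single differences ran from -0.50 to 0.17. For the 3 measured muscle and notochord genes the median signal was 10.52 to 12.86 in cut and 9.70 to 12.74 in uncut arrays. Their single differences ran from -0.12 to 0.81, with a median of 0.76. None of the epidermis, liver or muscle genes was called, beside 0.697% of all transcripts in either direction. The median log2 signal of the 24 measured lens genes was 6.76, 7.05, 11.44, 7.08 and 8.28 in cut arrays, against 6.70, 6.86, 6.98 and 7.02 in uncut arrays, so cut replicates 3 and 5 stood apart. The 2 measured exocrine pancreas genes had 10.48 in cut replicate 3 and 7.34 to 8.13 in the other cut arrays, against 7.06 to 7.83 in uncut arrays. The 6 measured genes of the lymphocyte, NK and mast cell list had 6.33 to 7.27 in cut and 6.49 to 6.71 in uncut arrays. Their 7 transcripts had a median difference of 0.13 and a range from -0.23, for 1 of the transcripts of *lck*, to 0.54, for *blnk*. None was called, beside 0.697% of all transcripts in either direction. *blnk*, an adaptor gene of the B cell receptor pathway, had groups separate by a gap of only 0.02 (adjusted p = 0.289, limma). Such separation, with every cut array above every uncut array, occurred for 2.83% of all transcripts. Cut replicates 3 and 5 were also the 2 cut arrays with the lowest *mfap4.1* signal, and the part of other tissues and cell types in the values of the 5 genes was not tested. Without these 2 arrays the log2 difference was 2.06 for *mfap4.1*, 1.72 for *havcr1*, 1.49 for *spi1b*, 0.33 for *csf1ra* and 1.59 for *cfbl*. Cut replicate 5 was the lowest cut array of *mfap4.1*, *havcr1*, *spi1b* and *cfbl*, so leaving it out raises their differences by itself. Nothing is read from that rise.

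The globin gene *hbae3*, a gene of red blood cells, was likewise set beside the 5. Log2 signal of *hbae3* was 12.05, 11.91, 12.58, 11.32 and 9.76 in cut tails, against 11.45, 12.37, 11.28 and 10.16 in uncut tails, and the groups overlapped. The difference was 0.21. Its deviations had r = 0.18 with *mfap4.1*, 0.52 with *havcr1*, 0.47 with *spi1b*, 0.05 with *csf1ra* and 0.14 with *cfbl* over the 9 arrays. Without cut replicate 5, r was -0.34 with *mfap4.1*, -0.04 with *havcr1*, 0.07 with *spi1b* and -0.56 with *cfbl*. These were the lowest values with 1 array left out, and the highest were 0.48, 0.65, 0.61 and 0.48. In the order *mfap4.1*, *havcr1*, *spi1b*, *csf1ra* and *cfbl*, the muscle gene *mylpfb* had r of 0.13, 0.46, 0.36, -0.34 and 0.43. In that order *c8a* had 0.41, 0.53, 0.50, 0.88 and 0.52. With 1 array left out, r ranged from -0.49 to 0.87 for *mylpfb* and from -0.11 to 0.92 for *c8a*.

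The 5 differences kept their sign under every alternative run. For *mfap4.1*, *havcr1*, *spi1b* and *cfbl*, whose groups were separate, leaving out arrays could not change the sign. The 5 genes were also selected on this contrast, so nothing is read from the kept signs. The difference ranged from 1.35 to 2.06 for *mfap4.1*, 1.31 to 1.72 for *havcr1*, 1.07 to 1.49 for *spi1b*, 0.24 to 0.41 for *csf1ra* and 1.24 to 1.59 for *cfbl*. The calls moved more than the differences. Without cut replicate 5, and likewise without uncut replicate 3, 3 of the 5 genes were called (*havcr1*, *spi1b* and *cfbl*). Of all 37176 transcripts, 134 were called higher without cut replicate 5 and 326 without uncut replicate 3. Without any other single array none of the 5 was called, *cfbl* included, beside 47 to 160 of all transcripts called higher.

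**Figure D4:**
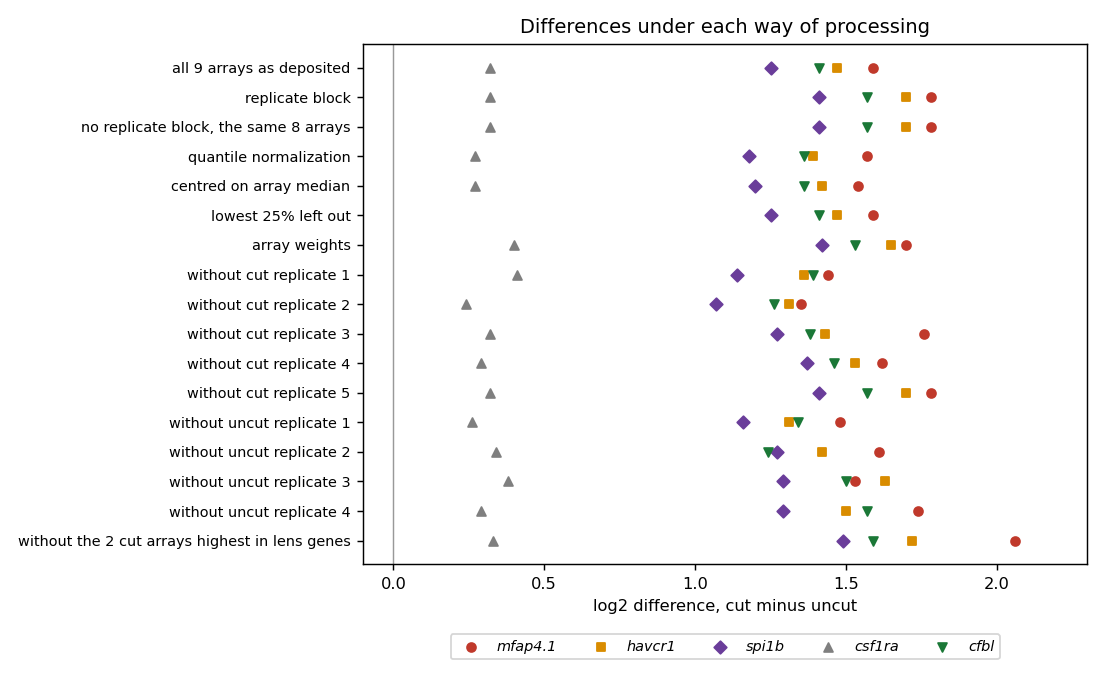
Log2 difference, cut minus uncut, of each of the 5 genes on all 9 arrays and under each alternative that changes the fitted difference, with a vertical line at 0. *csf1ra* has no point where the lowest 25% of transcripts was left out. Every difference is above 0, *csf1ra* stays between 0.24 and 0.41, and the other 4 genes stay between 1.07 and 2.06.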

How the data were processed

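RNA from posterior tissue was amplified, labeled with Cy3 and hybridized to NimbleGen zebrafish arrays with 1 color, giving 5 arrays of cut and 4 of uncut tails. The authors applied RMA background correction and what their methods call quartile normalization in ArrayStar, and deposited 1 log2 value per transcript; how probes were combined is not given in the sources used here. These log2 values were used unchanged.

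Transcripts were named through their RefSeq identifiers, with 2663 of 3055 matched. Names came from the GRCz12tu annotation, and no coordinates were taken from it. The cut minus uncut difference of every transcript was fitted with limma 3.58.1 in R 4.3.3, with condition as the only term. The fit was tested on simulated data. The call rule, 1.5-fold at an adjusted p of 0.1, follows the study's methods.

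The 5 genes, the 15 gene lists and the alternatives were chosen with earlier results of these data known. Named besides the 5 genes are called genes of the immune lists, up to 4 further genes of each such list with the largest absolute difference, and the 3 assigned genes most like each of the 5. Outside this rule, and after their values had been seen, *c1r*, *c3a.6*, *c8a*, *cxcr3.1*, *tnfrsf21* and *mylpfb* were added. So were the named genes of the lymphocyte, erythroid and endothelial lists. *c6*, *il11a* and *cmklr1* were named only from the study's own list of upregulated genes.

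Over the 8 arrays with shared numbers, same-numbered arrays had r of 0.59, 0.21, 0.24 and 0.35 over all transcripts, all over 0.1. With group means over all 9 arrays, replicate 2 had 0.09, which is not. On the values of the 8 arrays the replicate block was used, and it is given where it changes a call. This pairing comes from the values, as nothing states what the numbers share. Alternatives were the replicate block, quantile normalization, centering on array medians, leaving out the lowest 25% of transcripts, a mean-variance trend, array weights, an adjusted p of 0.05, a fold of 2, and each array left out in turn. Genes without an assigned transcript were not analysed here.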

Additional observations from a re-analysis of the deposited data

Results flagged for a closer look

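Within groups of 4 or 5 arrays, 24 sets of values were searched by Dixon's criterion for an array far from the rest of its group. The sets were the cut and the uncut values of the 5 genes, of *cxcr3.2* and of list medians. These medians were those of the erythroid and endothelial, liver, exocrine pancreas, lens, epidermis and fin fold, and muscle and notochord lists. Other values in the text were not searched. In all, 4 such arrays were found where chance gives about 1.2 (1 in 20 groups). For *spi1b*, uncut replicate 1 stood low at 7.53, while the rest of the uncut group lay between 7.88 and 7.94. For the exocrine pancreas genes, cut replicate 3 stood high with a median of 10.48, while the rest of the cut group lay between 7.34 and 8.13. For the same genes uncut replicate 1 stood low with 7.06, while the rest of its group lay between 7.71 and 7.83. For the epidermis and fin fold genes, uncut replicate 3 stood low with a median of 11.00, while its group otherwise lay between 11.32 and 11.37.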

How the results depend on the processing

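The median difference of the 5 genes, 1.41, ranged from 1.26 to 1.59 over the alternatives, and *csf1ra*, at 0.32, lay far below it. None of the 5 single differences turned sign. Leaving out arrays could not turn it for the 4 genes with separate groups, so nothing is read from that. The counts of calls moved. Against 174 transcripts called higher and 85 lower, the replicate block gave 377 and 297, with 4 of the 5 genes and 1 list gene (*cxcr3.2*) called higher. The same 8 arrays without the block, an alternative chosen after seeing the data, gave 134 and 42, with 3 of the 5 called. Array weights gave 1371 and 1257, with 4 of the 5 and 2 list genes (*cxcr3.2* and *elmo1*). Leaving out the lowest 25% of transcripts, which drops *csf1ra*, gave 199 and 103, with 4 of the 5 called. A mean-variance trend gave 197 and 112, also with 4 of the 5. An adjusted p of 0.05 gave 90 and 29, with 0 of the 5. A fold of 2 gave 96 and 32, and centering 142 and 109. Without cut replicates 3 and 5, also chosen after seeing the data, 97 and 17 were called, with 2 of the 5 (*mfap4.1* and *havcr1*). Leaving out 1 array at a time gave 47 (without uncut replicate 2 or 4) to 326 (without uncut replicate 3) higher, and 7 (without uncut replicate 4) to 544 (without uncut replicate 3) lower. It called 0 to 3 of the 5, and 0 to 1 list genes. The cause of these shifts was not tested. The call of *cfbl* therefore depends on single arrays, and 9 arrays with a dim *csf1ra* signal limit what the values can show.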
